A study of Mus musculus with 8 samples.

Results

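The genes described here are 36 mouse genes of cholesterol synthesis and of lipid metabolism under the control of the sterol regulatory element-binding proteins (SREBPs). They were taken by symbol from the deposited table of normalized abundance and kept where the mean over the 8 libraries was at least 10. All 36 listed symbols were in the table and all 36 passed, beside 12565 of the 19058 genes of the table as a whole. Every member also had a control mean above 10, the lowest being 24.6 for Abcg1, so none passed only through a knockdown. The members are 18 genes of sterol synthesis, 6 of sterol uptake and export, 7 of fatty acid synthesis and 5 regulators of the SREBPs.

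Cells build cholesterol from acetyl-CoA through the mevalonate pathway, which makes isoprenoid units, joins them into squalene and closes squalene into lanosterol, the first sterol. When the endoplasmic reticulum is short of cholesterol, SCAP escorts the SREBPs to the Golgi, where they are cut to release transcription factors; INSIG proteins hold SCAP back when sterols are plentiful. SREBP-2 (Srebf2) acts mainly on sterol synthesis and uptake and SREBP-1 (Srebf1) mainly on fatty acid genes, while the liver X receptors, which sense oxysterols, switch on cholesterol exporters such as Abca1 and Abcg1. A preimplantation embryo divides without a maternal blood supply and has to add membrane at each cleavage.

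Polyadenylated RNA was sequenced from whole mouse embryos collected as late morulae 78 h after fertilization, shortly before the blastocyst cavity forms. All embryos, the controls included, carried a small interfering RNA (siRNA) given by injection into the fertilized egg. The control group received a non-specific siRNA, and the other 3 groups received siRNA against Rbbp4, siRNA against Rbbp7, or siRNA against both genes; they are called the Rbbp4 knockdown, the Rbbp7 knockdown and the double knockdown. Rbbp4 and Rbbp7 encode related histone-binding proteins, and the series title names proliferation and deposition of histone H3.3 as its subject. Each group has 2 libraries, given below as replicate 1 and replicate 2. The mouse strain, the number of embryos in a library and whether both libraries of a group stem from separate pools of embryos are not given in the labels. The p-values therefore measure the spread between the libraries at hand, which may be technical. The siRNA acts on transcripts, and protein was not measured. In whole embryos, fewer cells of a type and less RNA per cell cannot be told apart.

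The siRNA targets bore out the labels. Rbbp4 had a normalized abundance of 5300 and 4710 in the control against 402 and 343 in the Rbbp4 knockdown and 348 and 433 in the double knockdown. Rbbp7 had 8399 and 7205 in the control, 298 and 293 with its own siRNA and 327 and 266 with both. Their log2 changes were −3.75 to −3.68 for Rbbp4 and −4.72 to −4.71 for Rbbp7 (largest adjusted p = 1.04e-05, limma). Totals per library ranged from 11334107 to 12011829. Control replicate 1 stood apart from the other 7 libraries, with 3937 genes at 0 against 2644 to 3237 and 6.21% of its signal from mitochondrial genes against 4.26% to 5.53%. All 10 late morula markers searched for were present, with summed abundance of 39321 and 38264 in the double knockdown and 44191 to 52224 in the other libraries.

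At an adjusted p below 0.05 (limma, Benjamini-Hochberg over all 12565 tested genes), 0 of the 36 members were called in any comparison. The share of all tested genes called was 0.0239% for the Rbbp4 knockdown against the control, 0.0239% for the Rbbp7 knockdown and 1.15% for the double knockdown. Against the Rbbp4 knockdown, the double knockdown had 0.0159% of genes called; against the Rbbp7 knockdown it had 0.358%. The interaction, which takes the changes of both single knockdowns away from that of the double knockdown, had 0.00796% called. A call of 0 members does not show that these genes were unchanged, since each group had 2 libraries. Regardless of sign, the smallest log2 change called against the control was 3.75 for Rbbp4 siRNA, 1.40 for Rbbp7 siRNA and 0.55 for both siRNAs. The last value is not a limit of detection, since Abcg1 was not called there at 1.51. For the double knockdown it was 4.46 against the Rbbp4 knockdown and 0.67 against the Rbbp7 knockdown, and for the interaction 8.97. The sections that follow give the members' values, and the words higher and lower describe libraries, not called changes.

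The promoters of the members are shown first, because SREBPs, the CCAAT-binding factor NF-Y and Sp1 are known to act together on sterol genes. RefSeq promoter windows on GRCm38.p6, from 250 bases before to 50 after each transcription start, matched 27 of the 36 members. Fdps, Fdft1, Sqle, Stard4, Npc1, Abcg1, Scd1, Scd2 and Fads1 had no entry. The 6 windows printed were picked for what they show: Hmgcs1 is the member that holds the sterol element core, Mvk has the most CCAAT boxes of these windows, Msmo1 has CCAAT and Sp1 boxes side by side, Ebp and Insig1 are genes whose values are described below, and Abca1 is an exporter for contrast. Each line gives the 250 bases before the start, 5′ to 3′ on the gene's strand. Capitals mark, on either strand, TCACNCCAC (core of the sterol regulatory element), CCAAT (NF-Y box), GGGCGG (Sp1 box) and CACGTG (E-box); on the opposite strand a CCAAT box reads ATTGG and an Sp1 box reads CCGCCC.
Hmgcs1, chr13:119690101-119690350, plus strand: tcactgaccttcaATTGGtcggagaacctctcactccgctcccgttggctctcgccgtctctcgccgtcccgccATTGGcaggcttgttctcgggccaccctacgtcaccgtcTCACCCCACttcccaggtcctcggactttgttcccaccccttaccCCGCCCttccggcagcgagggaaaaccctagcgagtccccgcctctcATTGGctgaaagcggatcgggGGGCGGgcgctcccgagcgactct
Mvk, chr5:114444019-114444268, plus strand: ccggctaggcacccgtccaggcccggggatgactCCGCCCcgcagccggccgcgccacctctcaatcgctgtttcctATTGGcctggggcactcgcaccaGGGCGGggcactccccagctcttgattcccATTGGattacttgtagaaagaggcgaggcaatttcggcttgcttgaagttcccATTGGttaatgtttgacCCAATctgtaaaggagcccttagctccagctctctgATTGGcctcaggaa
Msmo1, chr8:64733579-64733828, minus strand: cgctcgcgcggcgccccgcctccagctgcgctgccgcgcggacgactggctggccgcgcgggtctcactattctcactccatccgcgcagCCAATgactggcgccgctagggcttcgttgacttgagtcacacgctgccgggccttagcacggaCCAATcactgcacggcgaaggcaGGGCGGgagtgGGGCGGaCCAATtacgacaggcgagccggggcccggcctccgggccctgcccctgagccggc
Ebp, chrX:8193513-8193762, minus strand: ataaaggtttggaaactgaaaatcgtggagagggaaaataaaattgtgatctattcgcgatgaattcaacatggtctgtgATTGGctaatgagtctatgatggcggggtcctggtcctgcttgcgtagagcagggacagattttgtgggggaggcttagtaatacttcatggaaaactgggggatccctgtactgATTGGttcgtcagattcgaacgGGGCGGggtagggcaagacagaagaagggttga
Insig1, chr5:28071162-28071411, plus strand: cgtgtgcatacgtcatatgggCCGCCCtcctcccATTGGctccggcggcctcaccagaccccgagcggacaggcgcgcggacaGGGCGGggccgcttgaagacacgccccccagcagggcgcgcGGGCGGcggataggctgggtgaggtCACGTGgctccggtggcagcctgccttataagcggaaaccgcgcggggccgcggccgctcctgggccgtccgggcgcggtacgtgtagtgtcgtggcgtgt
Abca1, chr4:53159896-53160145, minus strand: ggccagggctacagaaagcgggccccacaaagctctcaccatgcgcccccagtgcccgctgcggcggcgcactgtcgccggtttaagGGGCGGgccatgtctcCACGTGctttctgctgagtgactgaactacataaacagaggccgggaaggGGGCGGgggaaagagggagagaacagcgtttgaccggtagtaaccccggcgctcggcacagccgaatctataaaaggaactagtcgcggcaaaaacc

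TCACNCCAC was found in the window of 1 of 27 members, Hmgcs1, at chr13:119690214-119690222, with its first base 137 bases before the start. The same core was found in 1.44% of all genes in the promoter table and 1.40% of the tested genes with a window. By window, it was in 1.24% of all 32851. CCAAT was in 22 of 27 members, among them 14 of the 15 sterol synthesis genes with a window, against 41.1% of all genes in the promoter table and 43.4% of the tested genes with a window. GGGCGG was in 24 of 27 members against 38.2% of all genes and 69.1% of the tested genes. CACGTG was in 6 of 27 members against 8.09% of all genes and 11.9% of the tested genes. In the sterol synthesis group Acat2 was the gene without CCAAT and Pmvk the gene without GGGCGG. A match is a description of letters in this window and says nothing of binding in these embryos.

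Levels between genes are compared per kb of exon, since longer transcripts give more signal. The length merges the exons of all annotated transcripts of a gene. It can exceed the length of the transcripts present, so the order of genes is approximate. In the control, the desaturases Scd2 and Scd1, which put the first double bond into saturated fatty acids, were the highest members, with 2443 ± 99.4 and 1642 ± 182 normalized units per kb (SD, n = 2), above 98.1% and 97.0% of the tested genes. Insig1, the sterol-sensing anchor that retains SCAP, followed at 1136 ± 156. Acly, which makes cytosolic acetyl-CoA, had 974 ± 216, and Npc2, the soluble cholesterol carrier of the lysosome, had 895 ± 67.8. Insig1 and Acly overlapped between control libraries, and so did Acly and Npc2.

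Within sterol synthesis the control levels spanned from 712 ± 150 per kb for Fdps to 8.44 ± 0.404 for Tm7sf2, a sterol reductase. Ebp followed Fdps at 581 ± 37.5, with overlapping libraries. Hmgcs1, which commits acetyl units to the pathway, had 484 ± 8.72, Sqle 444 ± 13.0 and Idi1, the isopentenyl isomerase, 388 ± 1.12, and these 3 did not overlap in that order. From Idi1 down to Mvd, at 272 ± 34.5, each gene overlapped its neighbour in the order. At the low end of all members, Insig2 had 13.9 ± 2.95, Fads2 13.3 ± 3.08 and Abcg1 3.37 ± 1.06, the last above only 5.91% of tested genes. Srebf2 was at 326 ± 73.9 and Srebf1 at 166 ± 19.2, with no overlap between them in either control library.

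**Figure D1:**
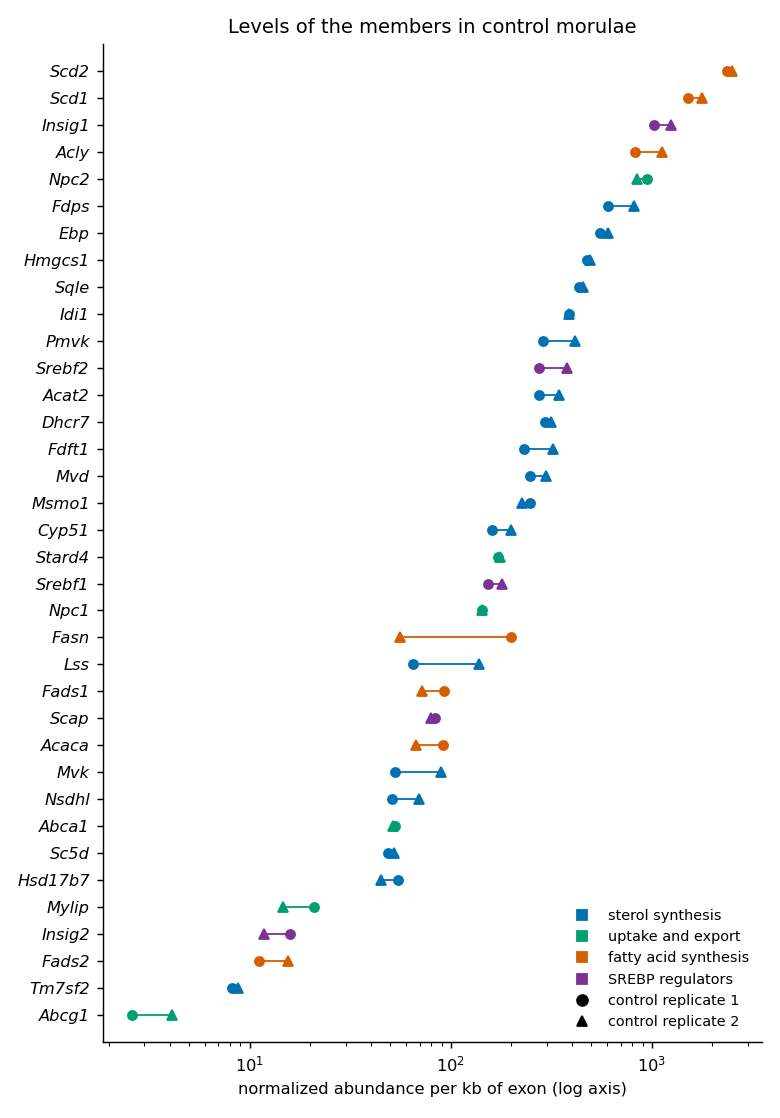
Normalized abundance per kb of exon (log axis) of the 36 members in the control libraries, in order of their mean. Circles are replicate 1, triangles replicate 2, and colours mark the role groups. Scd2 is highest at 2443 per kb and Abcg1 lowest at 3.37; the line joining the points is longest for Fasn.

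Sterol synthesis begins with the enzymes of the mevalonate branch. Acat2, the cytosolic thiolase, had 702 and 878 in the control libraries, 1062 and 917 with Rbbp4 siRNA, 943 and 1023 with Rbbp7 siRNA and 739.3 and 960.5 with both siRNAs. Its single knockdown libraries all lay above the control libraries, and its double knockdown libraries overlapped them. Of the exon sequence of Acat2, 39.1% of 50-base words also occur in Acat3, which had at most 32.1 in any library. How the authors' counting treated reads that fit several genes is not given, so values of members that share sequence are uncertain to that extent.

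Hmgcs1 gave 2193 and 2250 in the control and 1760 and 2146 in the double knockdown, both below the control, with a log2 change of −0.19 ± 0.16 (adjusted p = 0.565). Mvk and Pmvk, the kinases of mevalonate, and Mvd, the decarboxylase that follows them, overlapped the control in each of the 3 knockdowns. Pmvk had 494 and 708 in the control against 375 and 513 in the double knockdown, a log2 change of −0.43 ± 0.21 (adjusted p = 0.335).

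Fdps, which joins isoprenoid units into farnesyl diphosphate and has the highest abundance of the sterol synthesis genes (ENSMUSG00000059743, GRCm38 chromosome 3, 89093588 to 89101959), had 2552 and 3442 in the control. It had 3356 and 3089 with Rbbp4 siRNA, 3476 and 3670 with Rbbp7 siRNA and 2265 and 2999 with both siRNAs. Only the Rbbp7 knockdown libraries cleared the control, with a log2 change of 0.27 ± 0.17 (adjusted p = 0.660). The changes in the Rbbp4 and the double knockdown, 0.12 ± 0.17 and −0.19 ± 0.17 (adjusted p = 0.962 and 0.624), each changed sign when a control library was left out. Fdps shares 26.2% of its 50-base words with other gene models, mainly the overlapping Gm43738.

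Fdft1, squalene synthase, is the first enzyme committed to sterols (ENSMUSG00000021273, chromosome 14, 63145150 to 63179578). Its abundance was 981 and 1357 in the control libraries, 1838 and 1637 with Rbbp4 siRNA, 1865 and 1830 with Rbbp7 siRNA and 1705 and 1899 with both siRNAs. All 6 knockdown libraries stood above both control libraries, and the 3 knockdown groups overlapped each other. The log2 changes were 0.59 ± 0.16, 0.68 ± 0.16 and 0.64 ± 0.16 (adjusted p = 0.723, 0.243 and 0.0976).

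The change of Fdft1 in the double knockdown was 0.41 without control replicate 1 and 0.87 without control replicate 2, and in the latter fit it was called at an adjusted p that rounds to 0.05. In the Rbbp4 knockdown the same omissions gave 0.35 and 0.82. Exons of Ctsb, a lysosomal protease, overlap 18.3% of the exon bases of Fdft1 on the opposite strand. Ctsb itself had 1804 and 1802 in the control libraries, 1559 and 1660 with Rbbp4 siRNA, 1899 and 1809 with Rbbp7 siRNA and 1578 and 1497 with both siRNAs. Its libraries were below the control in the Rbbp4 and double knockdowns and above it in the Rbbp7 knockdown. The part of Ctsb reads in the values of Fdft1 was not tested.

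Sqle, squalene epoxidase, carries out the oxygen-dependent step after Fdft1 (ENSMUSG00000022351, chromosome 15, 59315077 to 59331192). It had 2414 and 2516 in the control libraries, 3740 and 3205 with Rbbp4 siRNA, 2814 and 2948 with Rbbp7 siRNA and 3194 and 3475 with both siRNAs. No knockdown library reached down to the control, and the Rbbp7 knockdown lay lowest of the 3 knockdowns. Log2 changes were 0.49 ± 0.12, 0.22 ± 0.12 and 0.43 ± 0.12 (adjusted p = 0.628, 0.588 and 0.108).

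Ebp, the sterol isomerase, acts late in the pathway (ENSMUSG00000031168, chromosome X, 8185329 to 8193512). Its values were 1280 and 1402 in the control libraries, 1612 and 1523 with Rbbp4 siRNA, 1153 and 1288 with Rbbp7 siRNA and 2075 and 1506 with both siRNAs. The Rbbp4 and double knockdown libraries were above the control and the Rbbp7 knockdown libraries overlapped it. The change in the double knockdown, 0.40 ± 0.16 (adjusted p = 0.245), was 0.17 without double knockdown replicate 1. Between the double and the Rbbp7 knockdown the difference was 0.54 ± 0.16 (adjusted p = 0.169).

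Other enzymes after Sqle close, demethylate and reduce the sterol ring system, and some of them, Nsdhl, Cyp51 and Sc5d among them, differed widely between replicates of the double knockdown. Nsdhl, a sterol dehydrogenase, had 146 and 198 in the control libraries, 305 and 229 with Rbbp4 siRNA, 232 and 346 with Rbbp7 siRNA and 102 and 251 with both siRNAs. The single knockdown libraries were above the control while the double knockdown libraries lay on either side of it. Cyp51, the lanosterol demethylase, had 556.5 and 1189 in the double knockdown and 704.5 and 877 in the control. Sc5d, the sterol desaturase, had 164 and 334 in the double knockdown around control values of 237 and 255.

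Msmo1, the sterol methyl oxidase, had 1522 and 1382 in the control and 1820 and 1822 in the Rbbp7 knockdown, with a log2 change of 0.33 ± 0.14 (adjusted p = 0.502). Hsd17b7, a sterol ketoreductase, had 278 and 230 in the control and 374 and 354 in the Rbbp4 knockdown, a change of 0.52 ± 0.20 (adjusted p = 0.836). Lss, which closes the ring of lanosterol, had 696 and 1495 in the control libraries themselves. Dhcr7, which makes cholesterol in the last step, lay between 1643 and 2117 in all 8 libraries, with those of the Rbbp7 knockdown highest (log2 change 0.22 ± 0.12, adjusted p = 0.597). Idi1 and Tm7sf2 had changes of −0.06 to 0.51 against the control, none past the threshold; 25.3% of the 50-base words of Idi1 are shared with other gene models.

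Uptake, transport inside the cell and export come next. Stard4 carries cholesterol between membranes and is itself a known SREBP target (ENSMUSG00000024378, chromosome 18, 33199355 to 33213862). It had 958 and 986 in the control libraries, 1168 and 1351 with Rbbp4 siRNA, 1280 and 1303 with Rbbp7 siRNA and 1398 and 1574 with both siRNAs. All knockdown libraries were above the control, and the double knockdown libraries were above all libraries of the single knockdowns.

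Stard4 had the smallest adjusted p of any member: 0.0615 in the double knockdown, at a log2 change of 0.61 ± 0.13 with a 95% interval of 0.32 to 0.90. It was 0.37 ± 0.13 in the Rbbp4 knockdown (adjusted p = 0.814) and 0.41 ± 0.13 in the Rbbp7 knockdown (adjusted p = 0.355). With only genes of a mean of at least 50 tested, the double knockdown value was called (adjusted p = 0.0487); over all alternatives its adjusted p ran from 0.0487 to 0.225. The difference between the double and the Rbbp4 knockdown was 0.24 ± 0.13 (adjusted p = 0.588).

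Abca1 and Abcg1 move cholesterol out of the cell to lipoproteins and are targets of the liver X receptors. Abca1 (ENSMUSG00000015243, chromosome 4, 53030787 to 53159895) had 548 and 536 in the control libraries, 668 and 510 with Rbbp4 siRNA, 502 and 537 with Rbbp7 siRNA and 747 and 728 with both siRNAs. The double knockdown libraries were the highest 2 of the 8, and both single knockdowns overlapped the control. The log2 change in the double knockdown was 0.44 ± 0.16 (adjusted p = 0.207), and against the Rbbp7 knockdown it was 0.51 ± 0.16 (adjusted p = 0.191).

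Abcg1 (ENSMUSG00000024030, chromosome 17, 31057675 to 31117988) was a low gene, at 19.1 and 30.1 in the control libraries, 38.7 and 41.6 with Rbbp4 siRNA, 37.2 and 27.2 with Rbbp7 siRNA and 58.1 and 84.3 with both siRNAs. Here too the double knockdown libraries were the highest 2, and the Rbbp4 knockdown libraries cleared the control. Its double knockdown change of 1.51 ± 0.43 was the largest of the members, with a 95% interval of 0.54 to 2.48 and an adjusted p of 0.124. On the log2(value + 1) scale a change of so low a gene is understated.

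Npc2 (ENSMUSG00000021242, chromosome 12, 84754562 to 84773152) was the most abundant gene of this group, with 5128 and 4606 in the control and 4957 and 4494 in the double knockdown. Its changes against the control were between −0.16 ± 0.11 and −0.04 ± 0.11 (smallest adjusted p = 0.694). Its membrane partner Npc1, which passes lysosomal cholesterol onward, had 1620 and 1626 in the control and 1298 and 1380 in the double knockdown. Npc1 was lower in both double knockdown libraries than in any other library, at −0.28 ± 0.12 (adjusted p = 0.268). Mylip, the ubiquitin ligase that degrades the LDL receptor, had 67.5 and 47.1 in the control and 32.5 and 43.8 in the Rbbp7 knockdown, a change of −0.57 ± 0.37 (adjusted p = 0.669). With both siRNAs Mylip had 49.6 and 65.7, which overlapped the control, at a change of 0.02 ± 0.37 (adjusted p = 0.989).

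In fatty acid synthesis, Scd1 (ENSMUSG00000037071, chromosome 19, 44394455 to 44407879) had 7405 and 8662 in the control libraries, 9701 and 9276 with Rbbp4 siRNA, 6597 and 8811 with Rbbp7 siRNA and 5213 and 6486 with both siRNAs. The Rbbp4 knockdown libraries were the highest 2 and the double knockdown libraries the lowest 2. Its log2 change was 0.24 ± 0.16 in the Rbbp4 knockdown (adjusted p = 0.885) and −0.46 ± 0.16 in the double knockdown (adjusted p = 0.2). Between these 2 groups the difference was −0.71 ± 0.16 (adjusted p = 0.243). The double knockdown value was −0.30 without double knockdown replicate 1.

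Scd2, the neighbouring desaturase (ENSMUSG00000025203, chromosome 19, 44293674 to 44306864), had 12967 and 13735 in the control libraries, 15997 and 13798 with Rbbp4 siRNA, 11768 and 15523 with Rbbp7 siRNA and 9823 and 11989 with both siRNAs. As for Scd1, the double knockdown libraries were below the control, the Rbbp4 knockdown libraries above it, and the Rbbp7 knockdown libraries lay on either side of it. Its double knockdown change was −0.30 ± 0.16 (adjusted p = 0.374), and against the Rbbp4 knockdown it was −0.45 ± 0.16 (adjusted p = 0.430). Scd1 and Scd2 share 4.56% and 3.97% of their 50-base words with other genes, largely of their own family.

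Fads2, which introduces a double bond into polyunsaturated fatty acids (ENSMUSG00000024665, chromosome 19, 10062765 to 10101746), had 36.8 and 51.1 in the control libraries, 53.1 and 47.1 with Rbbp4 siRNA, 42.8 and 42.7 with Rbbp7 siRNA and 64.3 and 96.4 with both siRNAs. The double knockdown libraries were the highest 2, at 0.85 ± 0.37 (adjusted p = 0.282), with a value of 0.56 without double knockdown replicate 2. Fads1, which acts later in the same fatty acid chain, had 446 and 346 in the control and 597 and 543 in the Rbbp4 knockdown, a change of 0.54 ± 0.22 (adjusted p = 0.836).

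Fasn, the fatty acid synthase, had 2181 and 609 in the control libraries, a ratio of 3.58 between replicates that was wider than for 99.8% of genes of similar level. Its other groups lay within that range, so no difference of Fasn from the control was detectable here. Acly had 4332 and 5948 in the control and 4259 and 4375 in the double knockdown, and Acaca, acetyl-CoA carboxylase, 1569 and 1153 against 1196 and 1366. Acaca shares 30.4% of its 50-base words with other gene models, mainly Gm5182.

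Among the regulators, Insig1 (ENSMUSG00000045294, chromosome 5, 28071363 to 28078662) had 3171 and 3853 in the control libraries, 4605 and 5350 with Rbbp4 siRNA, 3376 and 3428 with Rbbp7 siRNA and 3644 and 4859 with both siRNAs. The Rbbp4 knockdown libraries lay above the control, the Rbbp7 knockdown libraries within it, and the double knockdown overlapped it. The log2 change was 0.51 ± 0.16 in the Rbbp4 knockdown (adjusted p = 0.760), −0.04 ± 0.16 in the Rbbp7 knockdown (adjusted p = 0.963) and 0.27 ± 0.16 in the double knockdown (adjusted p = 0.429). Its relative Insig2, a low gene, had 55.4 and 40.9 in the control libraries, 115.5 and 73.3 with Rbbp4 siRNA, 118 and 67.7 with Rbbp7 siRNA and 55 and 97.1 with both siRNAs. Its single knockdown libraries lay above the control, with changes of 0.94 ± 0.42 and 0.90 ± 0.42 (adjusted p = 0.850 and 0.546).

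Scap (ENSMUSG00000032485, chromosome 9, 110333288 to 110384950) had 624 and 593 in the control libraries, 659 and 641 with Rbbp4 siRNA, 883 and 712 with Rbbp7 siRNA and 833 and 672.5 with both siRNAs. Every knockdown library was above the control, most closely in the Rbbp4 knockdown. The changes were 0.10 ± 0.16, 0.38 ± 0.16 and 0.30 ± 0.16 (adjusted p = 0.972, 0.508 and 0.384).

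Srebf2 (ENSMUSG00000022463, chromosome 15, 82147181 to 82205379) had 1969 and 2719 in the control libraries, 3222 and 2496 with Rbbp4 siRNA, 2070 and 2441 with Rbbp7 siRNA and 1966 and 2165 with both siRNAs. All 3 knockdowns overlapped the control, with changes of 0.29 ± 0.18, −0.04 ± 0.18 and −0.17 ± 0.18 (adjusted p = 0.884, 0.963 and 0.688). Srebf1 had changes of 0.04 to 0.20 (smallest adjusted p = 0.761), and only its Rbbp7 knockdown libraries, at 1037 and 1105, cleared the control libraries, at 860 and 1013. The transcript level of either gene does not measure cleavage of its protein, which sets SREBP activity.

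**Figure D2:**
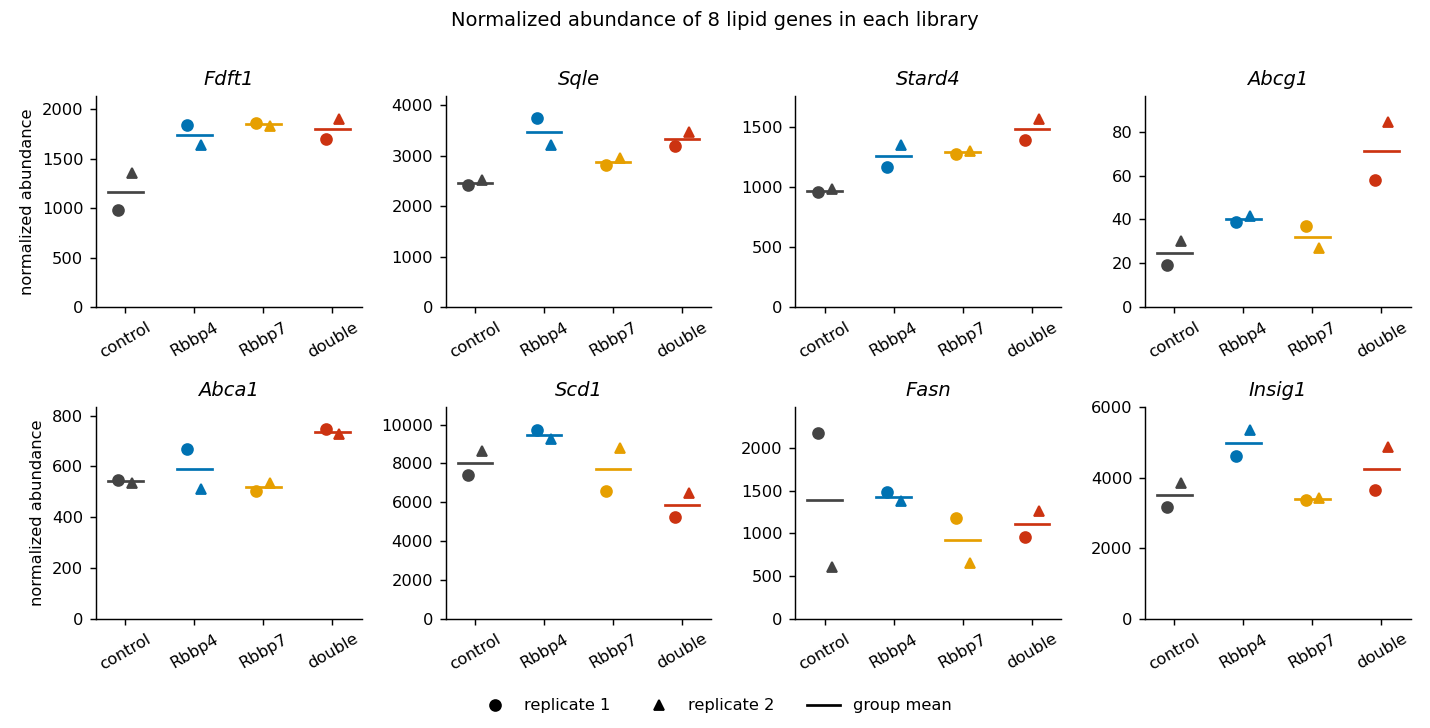
Normalized abundance (linear axis from 0) of 8 members in each of the 8 libraries, with replicate 1 as a circle, replicate 2 as a triangle and the group mean as a bar. Fdft1, Sqle and Stard4 have all 6 knockdown libraries above the control; Abcg1 and Abca1 are highest in the double knockdown, Scd1 is lowest there, and the Fasn controls lie at 2181 and 609.

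The comparison of the Rbbp4 knockdown with the control asks what loss of the Rbbp4 transcript alone does to this pathway. Sterol synthesis genes were mostly higher: 15 of 18 had a positive log2 change, with a median of 0.22, and all 7 fatty acid genes and all 5 regulators were positive, with medians of 0.20 and 0.29. Uptake and export genes had a median of 0.10, which was −0.04 without Rbbp4 knockdown replicate 1. Over all 36 members 31 were positive, with a median of 0.21, against 50.9% positive and a median of 0.00 over all tested genes. Both libraries were above both control libraries for 18 members and below for 1, Npc1; the shares over all tested genes were 18% and 17.4%.

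At an unadjusted p below 0.05, 6 members were higher in the Rbbp4 knockdown and 0 lower, against 3.01% and 2.85% of tested genes (limma): Fdft1, Sqle, Hsd17b7, Stard4, Fads1 and Insig1. The size of these medians rested on the control pair. Without control replicate 1 the median over the members was 0.14 and 12 of 18 sterol synthesis genes were positive; without control replicate 2 it was 0.34 and 18 of 18 were positive. For the regulators the same omissions gave 0.13 and 0.53. For the fatty acid genes they gave 0.13 and 0.31, each with 5 of 7 positive, and the median was 0.12 without Rbbp4 knockdown replicate 1.

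In the Rbbp7 knockdown, sterol synthesis genes had the same median of 0.22, with 14 of 18 positive, while fatty acid genes had a median of 0.02 and uptake and export genes 0.02. The latter was −0.05 without Rbbp7 knockdown replicate 2. The regulators had a median of 0.20, with 3 of 5 positive; it was 0.08 without control replicate 1 and 0.315, with 5 of 5 positive, without control replicate 2. Over all members 24 of 36 were positive with a median of 0.13, against 51.4% positive over all tested genes. Both libraries were above the control for 14 members and below it for 2, Npc2 and Mylip, against 19.9% and 19.7% of tested genes. Unadjusted p was below 0.05 for 4 higher members (Fdft1, Msmo1, Stard4 and Scap) and 0 lower ones, against 4.19% and 5.36% of tested genes. Without control replicate 1 the median of the sterol synthesis genes was 0.06 with 11 of 18 positive, and that of all members 0.06; without control replicate 2 the median of all members was 0.23.

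Loss of both transcripts gave a mixed picture. The median change was 0.07 for sterol synthesis (11 of 18 positive), 0.23 for uptake and export (4 of 6), −0.08 for fatty acid synthesis (2 of 7) and 0.27 for the regulators (4 of 5). Over all members 21 of 36 were positive, with a median of 0.05, against 49.9% of tested genes. Both libraries were above the control for 8 members and below it for 4 (Hmgcs1, Npc1, Scd1 and Scd2), against 21.9% and 22.2% of tested genes, so the members' share above, 22.2%, was near that of all genes.

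Unadjusted p in the double knockdown was below 0.05 for 7 members that were higher and 2 that were lower, against 8.85% and 8.47% of tested genes. The higher ones were Fdft1, Sqle, Ebp, Stard4, Abca1, Abcg1 and Fads2, and the lower ones Npc1 and Scd1. With only genes of a mean of at least 50, which leaves out Abcg1, the uptake and export median was 0.02. The other medians depended on single libraries. For all members the median was 0.22 without double knockdown replicate 1, −0.06 without double knockdown replicate 2 and 0.15 without control replicate 2. For the sterol synthesis genes it was 0.26 and −0.08 when the same double knockdown libraries were left out, and −0.10 without control replicate 1. For the fatty acid genes it was 0.15 without control replicate 1 and −0.26 without control replicate 2, and 0.02 and −0.25 without double knockdown replicates 1 and 2. For uptake and export it was 0.37 without control replicate 1 and 0.15 without control replicate 2, and for the regulators 0.08 without double knockdown replicate 2.

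**Figure D3:**
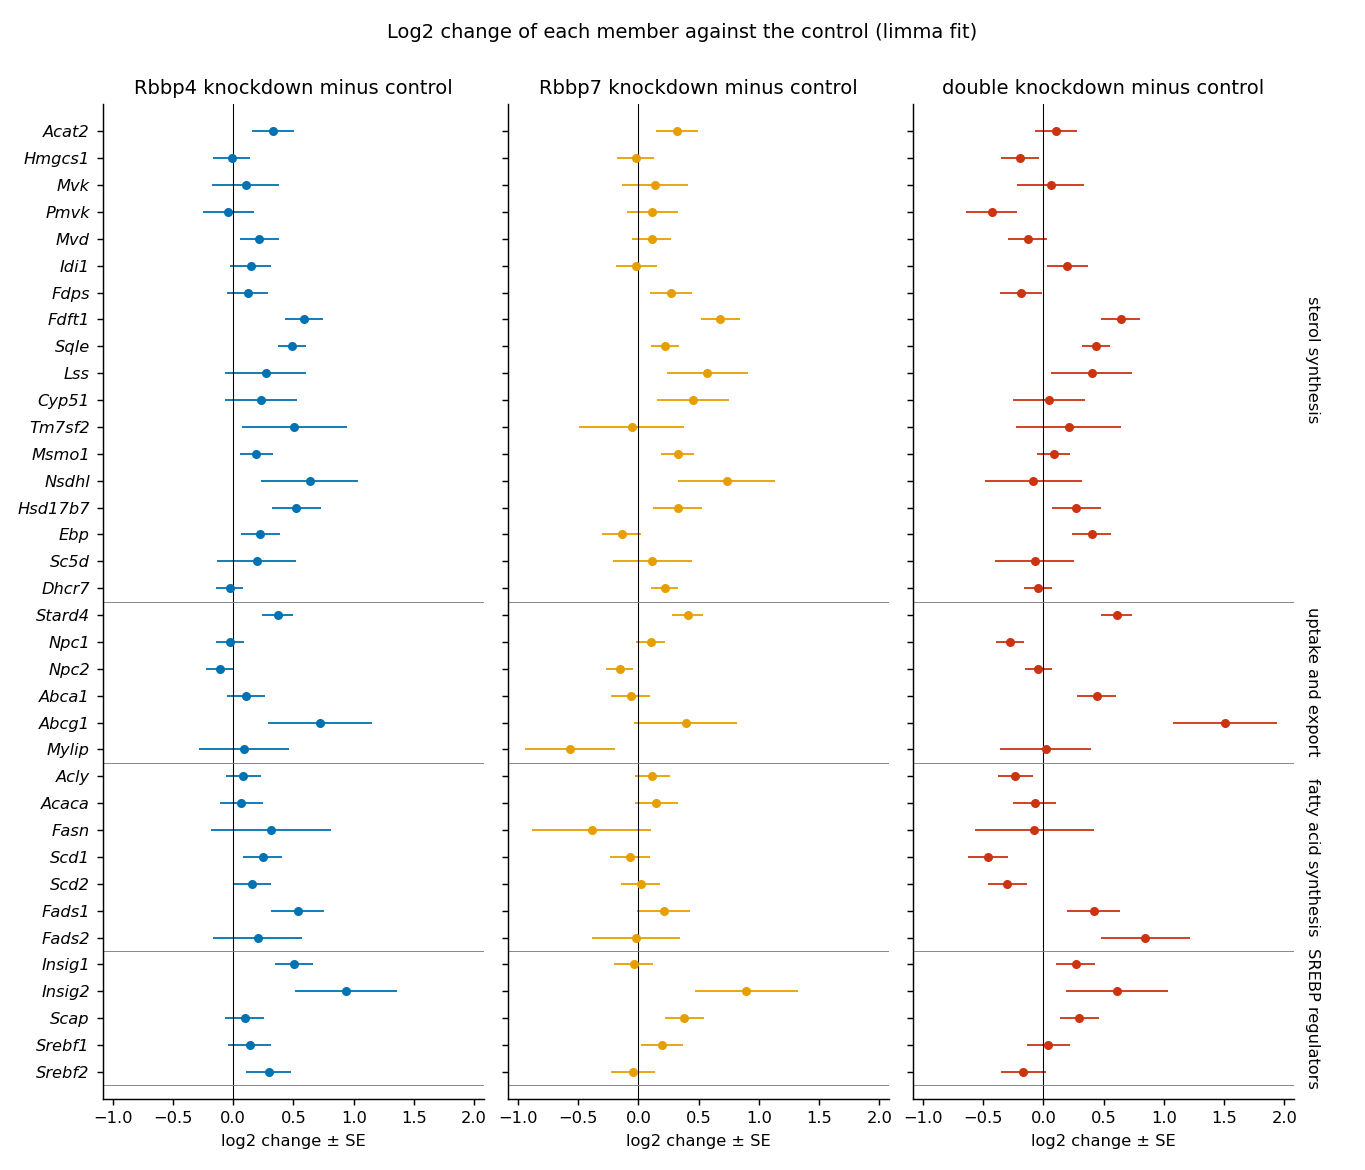
Log2 change of each member against the control with its standard error from the limma fit, in 3 panels, for the Rbbp4, Rbbp7 and double knockdown. Points right of the line at 0 are higher than the control: 31, 24 and 21 of 36. Abcg1 in the double knockdown, at 1.51, is the point farthest right.

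Late morula markers also differed between groups. In the double knockdown 8 of the 10 had both libraries below the control, against 22.2% of tested genes. Krt18, a keratin of the outer cells, fell by 1.08 on the log2 scale (adjusted p = 0.0358, limma). In the Rbbp7 knockdown 5 were below the control, Krt8, Krt18 and Gata3 among them, against 19.7% of tested genes. Nanog was above the control in the Rbbp7 knockdown and below it in the double knockdown. Pou5f1, Sox2, Cdx2 and Tfap2c overlapped the control in the Rbbp7 knockdown, Sox2 with a log2 change of −0.99. In the Rbbp4 knockdown 3 were below, against 17.4% of tested genes. The part of these markers in the values of the lipid genes was not tested.

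Markers of cells that could accompany embryos were low beside most of these genes but differed between groups. The cumulus and blood cell sums were not low beside Abcg1 and Fads2, whose values they exceeded. Of 10 cumulus and granulosa cell markers 5 were in the table, with summed abundance of 126 and 135 in the control libraries, 155 and 237 with Rbbp4 siRNA, 158 and 99.8 with Rbbp7 siRNA and 280 and 201 with both siRNAs. Cyp11a1, the defining enzyme of steroid-making cells, was listed at 0 in both control and both double knockdown libraries. It was at 2.76 in Rbbp4 knockdown replicate 1 and 1.04 in Rbbp7 knockdown replicate 2. Foxl2 was at 29.3 and 12.0 in the control against 101 and 74.4 in the double knockdown, and Inhba at 2.55 and 4.01 against 9.50 and 4.97. Amhr2, at 58.0 to 151, and Star, at 16.7 to 51.1, were present in every library, and their double knockdown libraries overlapped the control. All 4 oviduct markers were in the table, at sums of 5.19 to 34.5, and 3 of 6 blood cell markers, at sums of 137 to 405 that were almost all Cd68. The part of these markers in the values of Abca1, Abcg1 and Fads2 was not tested.

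Adding siRNA against Rbbp7 to that against Rbbp4 went with lower group means for most members. In the double against the Rbbp4 knockdown 26 of 36 members were negative, against 50.4% of tested genes, with a median of −0.16, and among fatty acid genes 6 of 7 were negative, with a median of −0.32. Fatty acid genes had 5 of 7 members with both double knockdown libraries below both Rbbp4 knockdown libraries; over all members it was 11 below and 5 above, against 21.5% and 20.9% of tested genes. At an unadjusted p below 0.05, 3 members were lower (Scd1, Scd2 and Srebf2) and 0 higher, against 4.74% and 4.83%. Single libraries differed. Relative to the control mean, the members' median was −0.06 and 0.22 in double knockdown replicates 1 and 2. It was 0.27 and 0.15 in Rbbp4 knockdown replicates 1 and 2, so the groups overlapped. For fatty acid genes the medians were −0.25 and 0.02 against 0.28 and 0.12, without overlap.

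Against the Rbbp7 knockdown, 23 of 36 members were negative in the double knockdown, against 51.7% of tested genes, with a median of −0.14. Sterol synthesis genes had 14 of 18 negative and a median of −0.18, while 5 of the 6 uptake and export genes were positive, with a median of 0.35. With only genes of a mean of at least 50 that median was 0.20. Both double knockdown libraries were above both Rbbp7 knockdown libraries for 9 members and below them for 9, against 23.1% and 23.2% of tested genes. Unadjusted p was below 0.05 for 4 higher members (Ebp, Abca1, Abcg1 and Fads2) and 6 lower ones (Pmvk, Fdps, Dhcr7, Npc1, Acly and Scd1), against 8.4% and 6.55%. Relative to the control mean, the members' median was 0.17 in each Rbbp7 knockdown library. It was −0.06 in double knockdown replicate 1 but 0.22 in replicate 2. For sterol synthesis the medians were 0.22 and 0.23 with Rbbp7 siRNA and −0.08 and 0.26 with both siRNAs. The negative medians thus depended on double knockdown replicate 1.

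The interaction was negative for 16 of 18 sterol synthesis genes, with a median of −0.44, and for all 5 regulators, with a median of −0.29; uptake and export genes had a median of 0.31. That is, the double knockdown's change in sterol synthesis genes was smaller than the sum of the changes of the single knockdowns. Over all members 28 of 36 were negative with a median of −0.31, against 51.8% of tested genes. At an unadjusted p below 0.05, 5 members were negative (Fdps, Fdft1, Msmo1, Nsdhl and Scd1) and 0 positive, against 2.81% and 3.68%. Fdft1 had −0.63 ± 0.23 and Nsdhl −1.45 ± 0.57 (adjusted p = 0.760 for each). The same control libraries enter both single changes. Without control replicate 1 the sterol synthesis median of the interaction was −0.29, and without control replicate 2 it was −0.50. The same omissions gave −0.18 and −0.41 for the regulators and 0.20 and 0.19 for uptake and export, where each omission of 1 library gave a value between 0.19 and 0.27.

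Summed over the 18 sterol synthesis genes, abundance was 17899 and 21005 in the control libraries, 23447 and 21694 with Rbbp4 siRNA, 21815 and 23949 with Rbbp7 siRNA and 19622 and 22981 with both siRNAs. The single knockdown libraries were above both controls, and the double knockdown libraries overlapped them. The 5 regulators summed to 6680 and 8219 in the control and 9458 and 9788 in the Rbbp4 knockdown, a mean of 129% of the control. Insig1 is the largest part of that sum, which pools the INSIG genes with Scap and the SREBP genes they hold back. The 7 fatty acid genes summed to 28937 and 30504 in the control and 21944 and 26201 in the double knockdown, a mean of 81% of the control, and Scd1 and Scd2 make up most of that sum. Uptake and export genes summed to between 7831 and 8508 in every library.

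**Figure D4:**
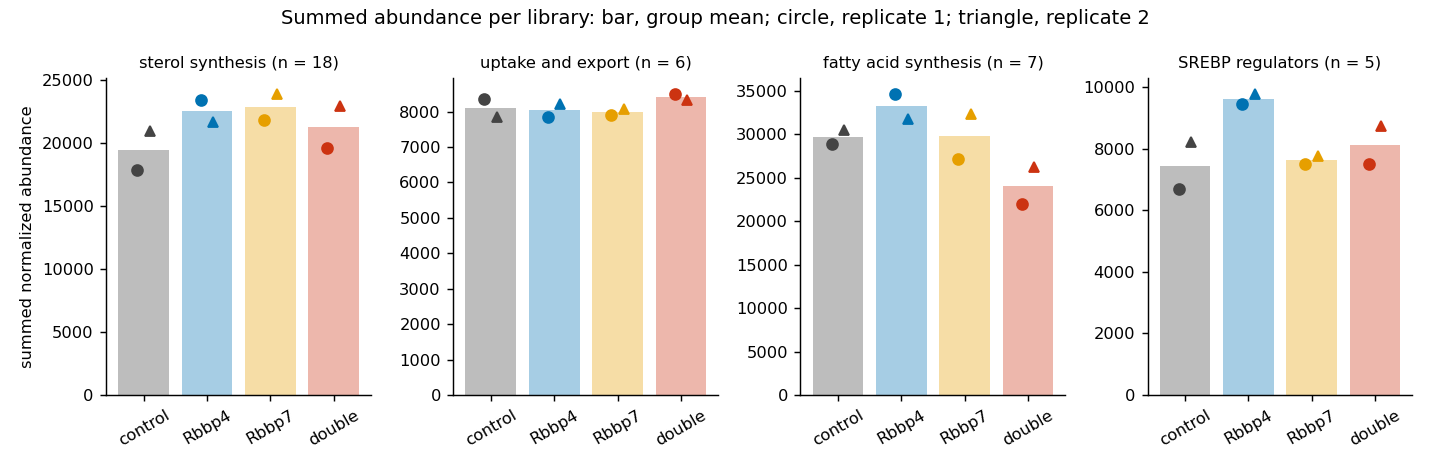
Summed normalized abundance of each role group per library (linear axis from 0; bar, group mean; circle, replicate 1; triangle, replicate 2). Regulators are highest in the Rbbp4 knockdown (9458 and 9788) and fatty acid genes lowest in the double knockdown (21944 and 26201).

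Sterol synthesis genes also differed together between replicates of the same group. In the control, 16 of 18 sterol synthesis genes were higher in replicate 2 than in replicate 1, with a median log2 difference of 0.20, while 50.9% of all tested genes were higher in replicate 2. In the double knockdown 15 of 18 sterol synthesis genes and 7 of 7 fatty acid genes were higher in replicate 2, with medians of 0.30 and 0.32, against 50% of all tested genes. The Rbbp4 knockdown had it the other way, with 14 of 18 sterol synthesis genes higher in replicate 1, and in the Rbbp7 knockdown 14 of 18 were higher in replicate 2. These differences within groups were of the size of the medians between groups. Nsdhl, Cyp51 and Sc5d in the double knockdown, with replicate ratios of 2.46, 2.14 and 2.04, and Lss in the control, with 2.15, were each wider than 96.8% or more of genes of similar level.

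**Figure D5:**
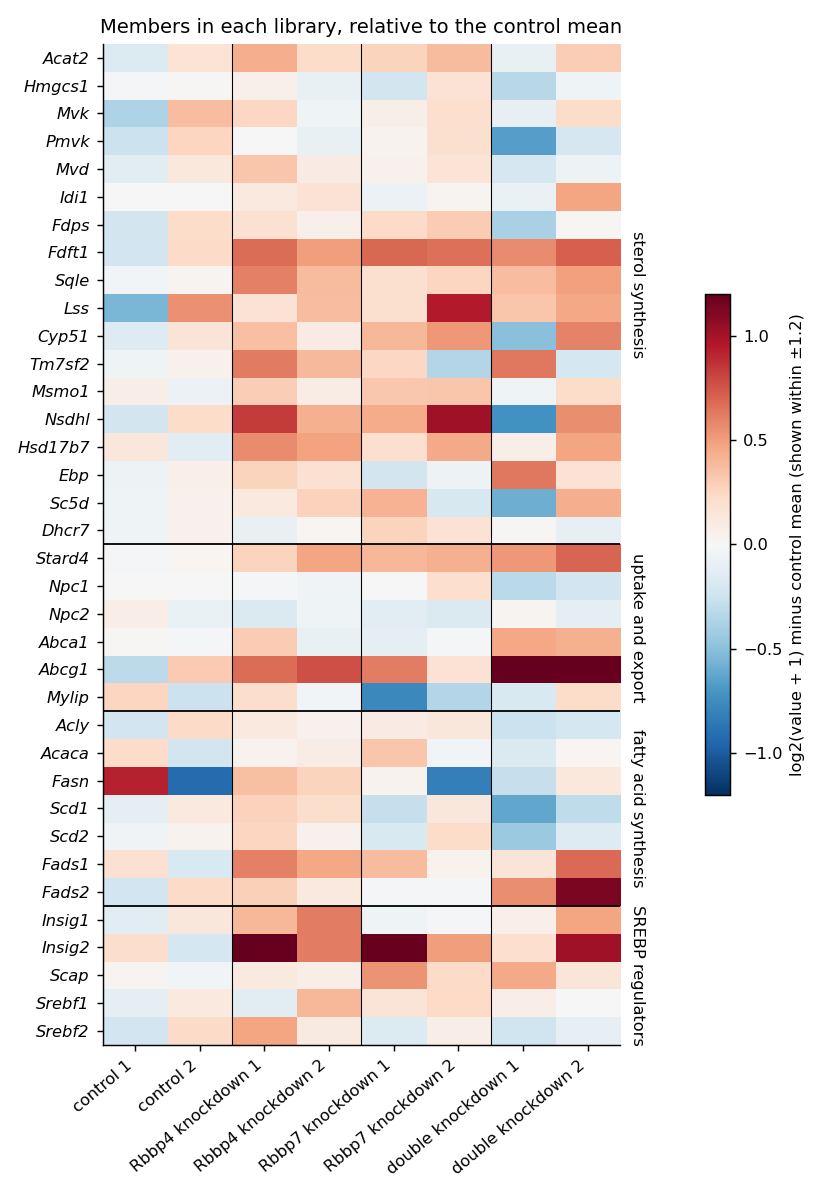
Log2(value + 1) of each member (rows, by role group) in each library (columns) minus the control mean; red is higher and blue lower, and values beyond ±1.2 are shown at the end of the scale. Sterol synthesis rows are bluer in control replicate 1 and double knockdown replicate 1 than in the other replicate of each group, and the Fasn row differs most between the controls.

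The rest of the lipid pathway was followed in a list of 41 further genes, of which 40 passed the filter on low values and Lipa did not. In the 3 comparisons with the control 0 were called (limma). At an unadjusted p below 0.05, 4 (10%) were higher and 2 (5%) lower in the double knockdown, against 8.85% and 8.47% of all tested genes. The Rbbp7 knockdown had 0 higher and 6 (15%) lower, against 4.19% and 5.36%. The Rbbp4 knockdown had 1 of each (2.5%), against 3.01% and 2.85%. Their median log2 changes were 0.00, −0.04 and −0.08 in the Rbbp4, Rbbp7 and double knockdown.

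Lrp1, a large receptor for lipoproteins (ENSMUSG00000040249), had 215 and 217 in the control libraries, 357 and 387 with Rbbp4 siRNA, 381 and 188 with Rbbp7 siRNA and 471 and 499 with both siRNAs. Its double knockdown libraries were the highest 2, and its Rbbp7 knockdown libraries lay on either side of the control. The double knockdown change was 1.16 ± 0.29 (adjusted p = 0.0938), and it was called without either Rbbp7 knockdown library, which this change does not use other than for the shared estimate of spread (adjusted p = 0.0420 and 0.0414).

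Apoe, a protein component of lipoproteins (ENSMUSG00000002985), had 1829 and 1765 in the control libraries, 1316 and 2090 with Rbbp4 siRNA, 1155 and 735 with Rbbp7 siRNA and 2257 and 1595 with both siRNAs. Both Rbbp7 knockdown libraries were the lowest of the 8, at −0.96 ± 0.27 (adjusted p = 0.287). Acss2, which makes acetyl-CoA from acetate (ENSMUSG00000027605), had 146 and 221 in the control libraries, 305 and 197 with Rbbp4 siRNA, 53.7 and 103 with Rbbp7 siRNA and 89.2 and 113 with both siRNAs. The Rbbp7 and double knockdown libraries were below the control, and their changes were −1.26 ± 0.38 and −0.83 ± 0.38 (adjusted p = 0.316 and 0.295). Nr1h3, the liver X receptor alpha, was picked out after its values were seen. It had 26.2 and 32.5 in the control and 77.5 and 56.6 in the double knockdown, with the single knockdowns between 29.7 and 37.5. Its double knockdown change was 1.16 ± 0.40 (adjusted p = 0.189). The part of Nr1h3 in the values of Abca1 and Abcg1 was not tested. Larger changes were found for Vldlr. Against the control it had the highest value of the list with Rbbp4 siRNA, 1.39, and the lowest with Rbbp7 siRNA, −1.67. Its difference between the double and the Rbbp4 knockdown, −2.02, was also the lowest of the list. None of these changes of Vldlr was called. The smallest adjusted p of the list belonged to other genes with smaller changes (limma). These were Soat1 in the Rbbp4 and Rbbp7 knockdowns (0.817 and 0.277) and Pgd between the double and the Rbbp4 knockdown (0.335).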

How the data were processed

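The deposited table holds the authors' normalized signal per gene for 8 libraries (4 groups of 2). Per the submitters' processing notes, Trimmomatic, HISAT2, featureCounts, DESeq2 and the GRCm38 build were used; for versions, settings, strand use and annotation, the entry is: not given in the sources used here. Per the labels, polyadenylated RNA was captured on oligo(dT) beads and amplified by PCR. Whole reads could not be recovered from the values, so depth is unknown and no counting interval is given.

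Of 19058 genes, the 12565 averaging at least 10 across the libraries were tested with limma 3.58.1 (R 4.3.3) on log2(value + 1), with 1 mean per group over all 8 libraries, an intensity trend and 4 residual degrees of freedom. Log2 changes are on that scale, with their standard error after ±; values of single groups have the SD. Tests are two-sided, adjusted by the Benjamini-Hochberg method over all tested genes, and called at 0.05. The fit was tested on simulated data first. Coordinates and exon lengths are from GENCODE M21 (GRCm38), which held 18991 of the gene IDs, and promoters are from RefSeq (GRCm38.p6). Shared sequence was counted as 50-base words of the exons found in another gene model.

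The members and lists were chosen with earlier results of these data known. Full values were given for the 3 members of each role group with the smallest p in the F test against the control and for its most abundant member, and for the 3 other pathway genes with the smallest such p. Nr1h3 and Vldlr were named outside this rule. The double knockdown columns differ from the sample titles by a letter and were matched by their gene numbers. Alternatives changed the pseudocount, filter, scaling, variance prior, weights, libraries fitted, or left out a library. Replicate numbers were not used to pair libraries in the main fit.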

Additional observations from a re-analysis of the deposited data

How the results depend on the processing

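The limits come from 2 libraries per group and an unknown read depth. Of the values that summarise a comparison, 222 under alternative settings were close to the main value and 46 were not; of the other values, 2370 were close, 40 moved, 41 changed sign and 4 passed the threshold only under the alternative. The cause was not tested. Members called stayed at 0 in all comparisons except the double knockdown against the control, where 1 was called with a mean of at least 50 (Stard4) and 0 to 1 when a library was left out (Fdft1 without control replicate 2).

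Genes called over the whole table moved more. Against 3 in the Rbbp7 knockdown, a pseudocount of 5 gave 5 and a mean of at least 50 gave 6. Against 144 in the double knockdown, fitting no intensity trend gave 10, only the groups compared 2 and a weight per group 38. Against 45 between the double and the Rbbp7 knockdown, a mean of at least 50 gave 78, no intensity trend 5 and only the groups compared 1.

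With 1 library left out, where the lone sample is assumed to vary like the other groups, genes called ranged over 2 to 35 in the Rbbp4 knockdown, 1 to 38 in the Rbbp7 knockdown and 18 to 94 in the double knockdown. They ranged over 2 to 13 and 5 to 43 for the double against the Rbbp4 and Rbbp7 knockdowns and 1 to 21 for the interaction. The members' median ranged over 0.137 to 0.340, 0.058 to 0.227 and −0.065 to 0.218 in the Rbbp4, Rbbp7 and double knockdown.

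The signs of some named genes turned when a library was left out, at main changes of up to 0.42 (Acss2, double against Rbbp7 knockdown). With a library left out, against the control, the Rbbp4 knockdown change ranged over −0.10 to 0.34 for Fdps, −0.09 to 0.30 for Abca1, −0.03 to 0.43 for Fads2 and −0.45 to 0.22 for Apoe. In the Rbbp7 knockdown it was −0.28 to 0.14 for Scd1, −0.18 to 0.22 for Scd2, −0.25 to 0.21 for Fads2, −0.18 to 0.10 for Insig1, −0.27 to 0.19 for Srebf2 and −0.20 to 0.82 for Lrp1. In the double knockdown it was −0.40 to 0.03 for Fdps, −0.12 to 0.04 for Npc2, −0.40 to 0.07 for Srebf2 and −0.17 to 0.33 for Apoe. Between the double and the Rbbp4 knockdown it was −0.03 to 0.14 for Fdft1, −0.17 to 0.06 for Sqle, −0.06 to 0.41 for Ebp, −0.14 to 0.53 for Apoe and −0.09 to 0.22 for Rbbp4. Between the double and the Rbbp7 knockdown it was −0.12 to 0.04 for Fdft1, −0.24 to 0.07 for Scap, −0.04 to 0.89 for Acss2 and −0.15 to 0.15 for Rbbp7. The interaction was −0.41 to 0.01 for Insig1, −0.49 to 0.44 for Acss2 and −0.44 to 0.58 for Lrp1. Quantile normalization gave −0.03 for Scd2 in the Rbbp7 knockdown.

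With the replicate number as a block, genes called were 2, 3 and 113 in the Rbbp4, Rbbp7 and double knockdown, 2 and 30 for the double against the Rbbp4 and Rbbp7 knockdowns and 1 for the interaction, and 0 members were called in each. Same-numbered libraries of different groups did not deviate together over all tested genes, with correlations between −0.02 and 0.05. Whether a number marks a shared batch is not given in the labels, and a correlation over all genes cannot settle it.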
